A study of Mus musculus with 6 samples.

Results

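The genes described here are 10 mouse genes that hold bone morphogenetic protein (BMP) signalling in check or report on it. They are the antagonists Nog, Grem1, Chrd and Fst, the pseudoreceptor Bambi, the Id genes Id1, Id2 and Id3, and the inhibitory Smads Smad6 and Smad7. They were chosen by symbol from the 27179 gene IDs of the count table, and all 10 were found and all 10 passed the filter on low counts, as did 13505 genes in all. Transcripts were counted by RNA sequencing in osteoblasts, the cells that build bone, sorted from the skull caps (calvaria) of C57Bl/6J pups aged 5 days. The sort used transgenic GFP under Osteocalcin-Cre, a recombinase active in osteoblasts. Per the labels, 3 libraries came from a conditional knockout (cKO) of Cdc73, also called Hrpt2, and 3 from wildtype mice, and both were isolated and sorted in the same way. The sources used here do not say whether the wildtype mice carried loxP-flanked alleles, whether each library was 1 animal or a pool, or which part of Cdc73 was deleted. The p-values therefore reflect the spread between libraries, which may be technical in part.

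BMPs are secreted ligands that bind paired receptor kinases and lead to phosphorylation of Smad1, Smad5 and Smad9, which enter the nucleus with Smad4. BMPs are potent inducers of bone, and noggin, gremlin and chordin bind them outside the cell, while follistatin mainly binds activins. Inside the cell the response is damped by its own targets, since Id genes, Smad6 and Smad7 are switched on by Smads, and Smad6 and Smad7 then block receptors or Smad activation.

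The libraries held 13591925 to 20993962 counts. Before any scaling the 10 genes together took 0.0677% to 0.0756% of them in the knockout and 0.0766% to 0.0835% in the wildtype libraries. Cdc73 itself was detected in every library, at 13.98, 14.7 and 14.4 CPM (read counts relative to the library total, scaled by the TMM method) in knockout 1, 2 and 3 and 20.5, 12.8 and 21.7 CPM in wildtype 1, 2 and 3. The groups overlapped, with a log2 fold change of -0.36 ± 0.22 (standard error) and an adjusted p of 0.428 in edgeR's quasi-likelihood test. Counts over a whole gene need not report a deletion of part of it, so this level did not check every label. Osteoblast markers were abundant throughout, their 12 genes summing to 247691 to 365992 CPM in the knockout and 291997 to 323830 CPM in the wildtype libraries, most of it from Col1a1 and Col1a2. Of these 12 genes 10 had a negative log2 fold change (median -0.27), 3 of them with an unadjusted p under 0.05, and 0 were called by edgeR. Wildtype 1 correlated across genes with the knockout libraries at 0.973 to 0.983 and with wildtype 2 and 3 at 0.940 and 0.945 (Pearson's r of log2 CPM, genes not being independent replicates). Wildtype 2 and 3 correlated with each other at 0.925 and with the knockout libraries at 0.906 to 0.939. Wildtype 1 was thus closer to wildtype 2 and 3 than these were to each other. For its likeness to the knockout libraries, results below are also given without wildtype 1 where that matters. Leaving out a library chosen in this way favours wider differences between the groups.

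Markers of several other cell types had higher knockout than wildtype means, although edgeR called 0 genes of any marker list (lowest adjusted p 0.273). The 14 chondrocyte markers summed to 15258 to 30011 CPM in the knockout libraries and 4882 to 12597 CPM in the wildtype libraries, and all 14 had a positive log2 fold change (median 2.13). Col2a1 measured 15627, 8059 and 4958 CPM in knockout 1, 2 and 3 and 4288, 518 and 606 CPM in wildtype 1, 2 and 3. In wildtype 2 and 3 most of the sum came from Col11a1 (1616 and 1319 CPM) and Col11a2 (3166 and 2598 CPM). The 12 endothelial markers, all positive (median 1.29), summed to 146 to 256 CPM against 55.0 to 148 CPM. All 14 macrophage markers were positive as well (median 1.19), with sums of 174 to 417 CPM against 103 to 149 CPM, and so were the 9 neutrophil markers (58.4 to 196 against 20.6 to 57.1 CPM) and the 6 erythroid markers (49.9 to 401 against 17.5 to 115 CPM). The groups overlapped in the endothelial sums (146 CPM in knockout 3, 148 in wildtype 1) and in the erythroid sums. Sums of pericyte and smooth muscle markers overlapped too (447 to 519 against 416 to 540 CPM). So did those of skeletal muscle markers (7.57 to 39.7 against 8.42 to 56.6 CPM). Of the 6 pericyte and smooth muscle markers 3 were positive and 3 negative. Myh11 was higher in every knockout library (log2 fold change 1.71), while Acta2 stood at -0.43 with overlapping groups. Of all these markers, Elane and Alas2 were at 0 in wildtype 2 and Myh3 and Ckm in wildtype 3. Endothelial and cartilage cells are known to express several of the 10 genes, and the part of these cells in the differences below was not tested. In sorted bulk RNA, fewer cells of a type and less RNA per cell cannot be told apart.

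No difference between knockout and wildtype passed the test for any of the 10 genes. The largest fitted differences in each direction were those of Grem1, Fst and Smad7, higher in the knockout mean, and Smad6, lower in it. With edgeR's quasi-likelihood test and Benjamini-Hochberg adjustment over all genes, 0 of the 10 genes were called (adjusted p 0.327 to 0.978), and 0% of the 13505 genes tested were called. DESeq2 and limma voom also called 0 of the 10, though DESeq2 called 289 genes in all and voom 0. At an unadjusted p under 0.05 there was 1 gene of the 10, Smad7, against 14.6% of all genes (8.26% higher and 6.35% lower in the knockout libraries). The fold changes were positive for 7 genes and negative for 3, with a median of 0.20 on the log2 scale beside -0.0058 over all genes tested. With scaling by library size alone 5 were positive and 5 negative, the median being 0.0034 where the median of all genes was -0.21. The most abundant feature without a name in RefSeq took 16.7% to 20.7% of the knockout counts and 9.67% to 11.2% of the wildtype counts, and its part in that shift was not tested.

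**Figure D1:**
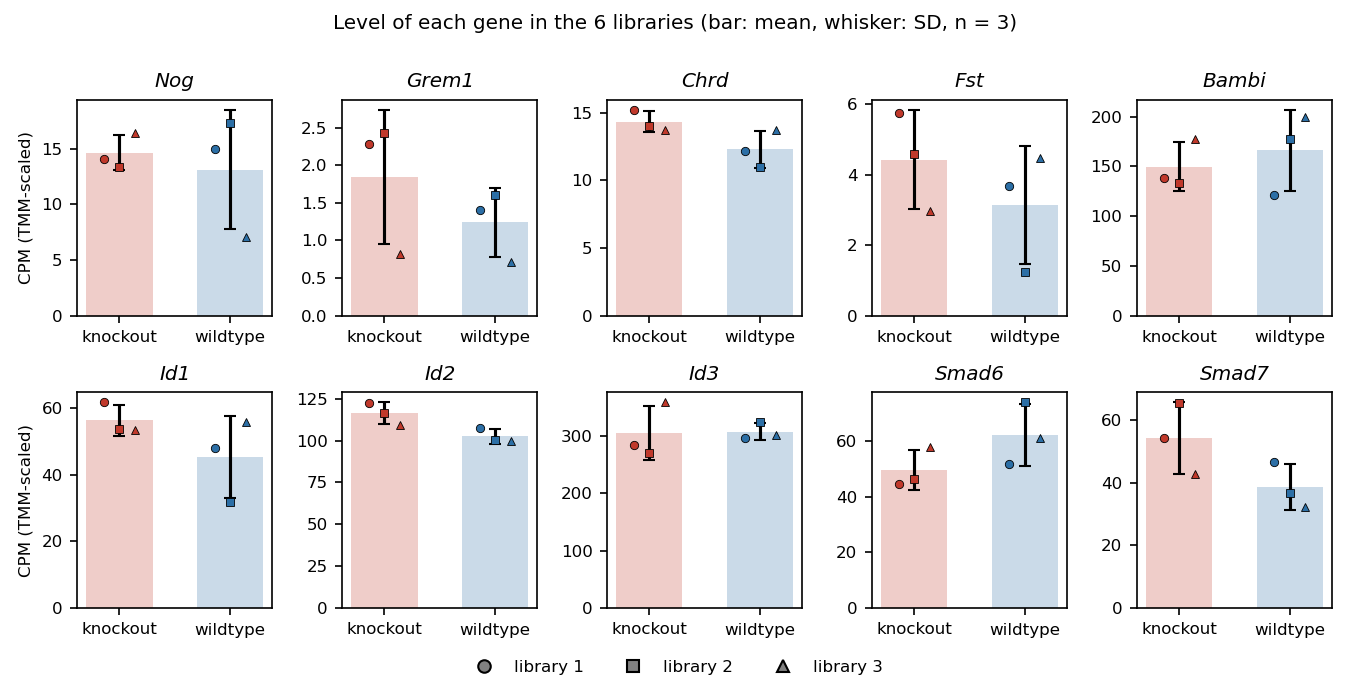
CPM of each of the 10 genes (vertical axes start at 0 and differ between panels) in the 3 knockout (red) and 3 wildtype (blue) libraries, with bars for the mean and whiskers for the SD. The points of both groups overlap in 8 panels, and in those of Chrd and Id2 every knockout point lies above every wildtype point.

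For 2 of the 10 genes, Chrd and Id2, all knockout libraries exceeded all wildtype libraries, an order found in 10.6% of all genes tested. In 0 of the 10 did every knockout library lie below every wildtype library, against 9.81% of all genes. These counts moved with the scaling. With DESeq2's size factors the same 2 genes were separated, with upper-quartile factors Id2 alone, and with library size alone neither, while Id3 and Smad6 then lay lower in every knockout library. Wildtype 1 lay within the range of the knockout libraries for 6 of the 10 genes (51.7% of all genes), whereas wildtype 2 did so for 3 (24.4%) and wildtype 3 for 3 (21.2%).

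Among the secreted antagonists, the best expressed in CPM were Nog and Chrd. Nog (gene ID 18121, chr11:89300638-89302559 in GRCm38, the build also called mm10), which encodes noggin, a protein that wraps around BMPs and hides their receptor-binding faces, measured 14.1, 13.4 and 16.5 CPM in knockout 1, 2 and 3 and 14.99, 17.3 and 7.11 CPM in wildtype 1, 2 and 3. The low wildtype 3 stood apart from the other 5 libraries, and the remaining values overlapped. Knockout libraries averaged 14.7 ± 1.59 CPM and wildtype libraries 13.1 ± 5.35 CPM (here and below ± is the SD for levels, with n = 3 in either group, and the standard error for log2 fold changes). The log2 fold change was 0.16, with a 95% interval of -0.51 to 0.82. Without wildtype 3 the sign turned (-0.15), as it did with library size alone (-0.054) and with wildtype 1 as the only control (-0.045).

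Chrd (gene ID 12667, chr16:20731425-20742384) encodes chordin, which binds BMPs until proteases of the Bmp1 and tolloid family cleave it. It measured 15.2, 14.04 and 13.7 CPM in the knockout libraries and 12.2, 11.0 and 13.7 CPM in the wildtype libraries. Knockout 3 exceeded wildtype 3 by 13.74 against 13.67 CPM, so the separation of the groups rested on a gap far below the SD of either group. The means were 14.3 ± 0.760 and 12.3 ± 1.35 CPM, a log2 fold change of 0.22 ± 0.17 (adjusted p = 0.519 in edgeR), with an interval of -0.16 to 0.61. With library size alone it was 0.024. The span of Chrd overlaps Thpo in RefSeq, which averaged 1.67 counts per library.

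Fst and Grem1 were the scarcest of the 10. Fst (gene ID 14313, chr13:114452262-114458989), the gene of follistatin, measured 5.76, 4.59 and 2.96 CPM in the knockout libraries (96, 66 and 36 counts) and 3.67, 1.25 and 4.48 CPM in the wildtype libraries (84, 18 and 75 counts). Only wildtype 2 lay below the lowest knockout library, and the 18 counts there have an exact 95% Poisson interval of 10.7 to 28.4, which covers counting error only. The log2 fold change was 0.50 ± 0.46 (adjusted p = 0.585 in edgeR). It was 0.12 without wildtype 2, 0.25 without knockout 1 and 0.81 without wildtype 3.

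Grem1 (gene ID 23892, chr2:113748675-113758648), which encodes the antagonist gremlin, measured 2.28, 2.43 and 0.823 CPM in the knockout libraries (38, 35 and 10 counts) and 1.40, 1.60 and 0.717 CPM in the wildtype libraries (32, 23 and 12 counts). Library 3 of either group was the lowest of its group. Its 10 and 12 counts have Poisson intervals of 4.80 to 18.4 and 6.20 to 21.0, which overlap, though raw counts are not scaled for library depth. The log2 fold change of 0.58 ± 0.55 had the widest interval of the 10 genes, from -0.65 to 1.82. On leaving out each library it ran from 0.30 without wildtype 3 to 0.91 without knockout 3.

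Bambi (gene ID 68010, chromosome 18) encodes a membrane protein that resembles a type I receptor but lacks the kinase domain, so that receptor complexes holding it do not signal. It measured 138, 133 and 178 CPM in the knockout libraries and 121, 177 and 200 CPM in the wildtype libraries. Wildtype 1 was the lowest of all 6 libraries and wildtype 3 the highest, so the wildtype group spanned the whole knockout range. The means were 149.7 ± 24.5 and 166 ± 40.6 CPM, a log2 fold change of -0.15 ± 0.22 (adjusted p = 0.740 in edgeR), with an interval of -0.63 to 0.34. On leaving out each library it ran from -0.35 without wildtype 1 to -0.0030 without wildtype 3. It was 0.30 with wildtype 1 as the only control.

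**Figure D2:**
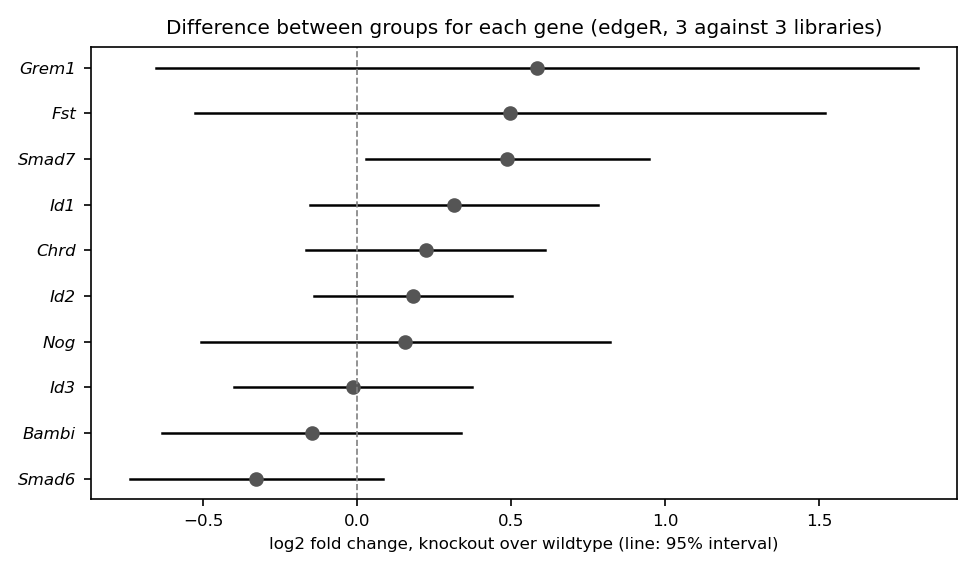
Log2 fold change of knockout over wildtype for each of the 10 genes (points) with its 95% interval (lines) from the edgeR fit on 3 against 3 libraries. The interval of Smad7 runs from 0.028 to 0.95, and the other 9 intervals include 0.

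The Id proteins are helix-loop-helix proteins without a DNA-binding region. They pair with E proteins such as those of Tcf3, Tcf4 and Tcf12 and keep them, and partners such as Twist1, from binding DNA, and Id1 in particular is a standard readout of BMP signalling. RefSeq promoter windows (GRCm38.p6) matched 5 of the 10 genes, namely Grem1, Chrd, Id2, Id3 and Smad6. The 250 bases before the start site of the Smad targets among them are shown because Smads bind DNA. Capitals mark GGCGCC, a GC-rich motif bound by Smad1 and Smad5, and GTCT or its reverse complement AGAC, the core of the Smad3 and Smad4 motif. Whether Smads bind at these places was not tested. Id2 is read from the minus strand of chr12:25096093-25096342, Id3 from the plus strand of chr4:136143572-136143821 and Smad6 from the minus strand of chr9:64022060-64022309. RefSeq also has longer gene models, so that the 26 bases of the Smad6 window nearest its start site, and all 250 bases of the Chrd window, lie inside the spans of those genes. The end of the RefSeq promoter entry was found in a GENCODE M21 transcript of the same gene for every window except that of Id3.
Id2: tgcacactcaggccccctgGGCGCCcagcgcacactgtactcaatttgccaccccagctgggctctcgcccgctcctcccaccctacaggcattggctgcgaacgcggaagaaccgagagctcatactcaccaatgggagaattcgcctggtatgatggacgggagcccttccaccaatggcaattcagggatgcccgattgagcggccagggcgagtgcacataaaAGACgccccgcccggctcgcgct
Id3: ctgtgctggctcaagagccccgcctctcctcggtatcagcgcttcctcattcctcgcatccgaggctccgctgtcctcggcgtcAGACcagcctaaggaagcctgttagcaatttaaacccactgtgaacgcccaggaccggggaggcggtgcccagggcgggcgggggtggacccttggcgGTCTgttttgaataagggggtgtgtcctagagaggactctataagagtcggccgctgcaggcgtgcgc
Smad6: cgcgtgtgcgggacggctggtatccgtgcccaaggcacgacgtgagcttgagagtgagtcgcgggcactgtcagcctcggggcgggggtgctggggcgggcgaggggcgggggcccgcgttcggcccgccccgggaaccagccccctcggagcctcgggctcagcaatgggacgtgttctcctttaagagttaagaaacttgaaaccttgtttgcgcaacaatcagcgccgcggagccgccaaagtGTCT
Searched on both strands, GGCGCC stood in the windows of Id2 (first base at -231 from the start site), Grem1 (-78) and Chrd (-203), and in 9.59% of all 32851 RefSeq promoter windows of the same length. GTCT stood in all 5 windows and in 82.9% of all windows, with 4 matches in Grem1, 2 in Id3 (-166 and -68) and 1 each in Chrd (-106), Id2 (-23) and Smad6 (-4). The E-box CANNTG, to which E proteins and Twist1 bind, was found in that of Id2 at -196 and in 66.2% of all windows. The 5 windows had a GC content of 62.8% to 78%, against a median of 52.4% over all windows, and GGCGCC is itself GC-rich.

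Id1 (gene ID 15901, chr2:152736251-152737410) measured 61.6, 53.7 and 53.3 CPM in the knockout libraries and 47.9, 31.8 and 55.8 CPM in the wildtype libraries. Wildtype 3 lay inside the knockout range and wildtype 2 far below every other library. The means were 56.2 ± 4.68 and 45.2 ± 12.2 CPM, a log2 fold change of 0.32 ± 0.21 (adjusted p = 0.455 in edgeR), with an interval of -0.15 to 0.78. Without wildtype 2 it was 0.0995, and without wildtype 3 it was 0.48. The 12 endothelial markers, a cell type with high Id1, had their 3 highest sums in knockout 1, knockout 2 and wildtype 1 (256, 231 and 148 CPM). Wildtype 3, with the second highest Id1 level, had the lowest endothelial sum (55.0 CPM), and the part of these cells in the Id1 level was not tested.

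Id2 (gene ID 15902, chr12:25093799-25096092) showed the smallest relative spread between libraries of the 3 Id genes. It measured 123, 117 and 109 CPM in the knockout libraries and 108, 100.3 and 99.8 CPM in the wildtype libraries. All knockout libraries exceeded all wildtype libraries, by 109.5 against 107.8 CPM at the closest. The means of 116 ± 6.52 and 103 ± 4.47 CPM gave a log2 fold change of 0.18 ± 0.14 (adjusted p = 0.529 in edgeR), with an interval of -0.14 to 0.50. With library size alone it was -0.017.

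Id3 (gene ID 15903, chr4:136143822-136145392) was the most abundant of the 10 and did not separate the groups. It measured 285, 271 and 358 CPM in the knockout libraries and 296, 325 and 302 CPM in the wildtype libraries. All 3 wildtype libraries lay inside the knockout range, and knockout 3 was the highest. The log2 fold change was -0.014 ± 0.17 (adjusted p = 0.978 in edgeR), with an interval of -0.40 to 0.37.

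The inhibitory Smads had fold changes of opposite sign. Smad7 (gene ID 17131, chromosome 18), which recruits ubiquitin ligases to TGF-beta and BMP receptors, measured 54.2, 65.5 and 42.6 CPM in the knockout libraries and 46.7, 36.8 and 32.2 CPM in the wildtype libraries. Wildtype 1 exceeded knockout 3, while knockout 1 and 2 lay above all wildtype libraries. The means were 54.1 ± 11.5 and 38.6 ± 7.39 CPM, a log2 fold change of 0.49 ± 0.21 with an unadjusted p of 0.0398 and an adjusted p of 0.327 in edgeR. Over 16 alternative settings the fold change was positive in all 16, from 0.20 to 0.63, and the lowest adjusted p was 0.0958 in edgeR. The unadjusted p was under 0.05 in 10, most of them settings that kept all 6 libraries. In edgeR it was 0.0178 without knockout 3 and 0.0139 without wildtype 1. Without knockout 1, knockout 2, wildtype 2 or wildtype 3 it was 0.0856, 0.184, 0.102 and 0.112. With library size alone it was 0.243.

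Smad6 (gene ID 17130, chr9:63953076-64022085), which acts mainly on BMP receptors and Smad1, measured 44.5, 46.4 and 57.9 CPM in the knockout libraries and 51.8, 74.0 and 61.0 CPM in the wildtype libraries. Wildtype 1 again lay inside the knockout range, while wildtype 2 and 3 lay above it. The means were 49.6 ± 7.26 and 62.3 ± 11.2 CPM, a log2 fold change of -0.33 ± 0.18 (adjusted p = 0.399 in edgeR), with an interval of -0.74 to 0.082. Over the same 16 settings it was negative in all 16, from -0.54 to -0.072, the value nearest to 0 being that with wildtype 1 as the only control. Without wildtype 1, Smad7 stood at 0.63 (adjusted p = 0.0958 in edgeR) and Smad6 at -0.46 (adjusted p = 0.139 in edgeR), for both the lowest adjusted p of the 16 settings and neither past the threshold of 0.05. The difference between the fold changes of Smad6 and Smad7 was not tested.

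**Figure D3:**
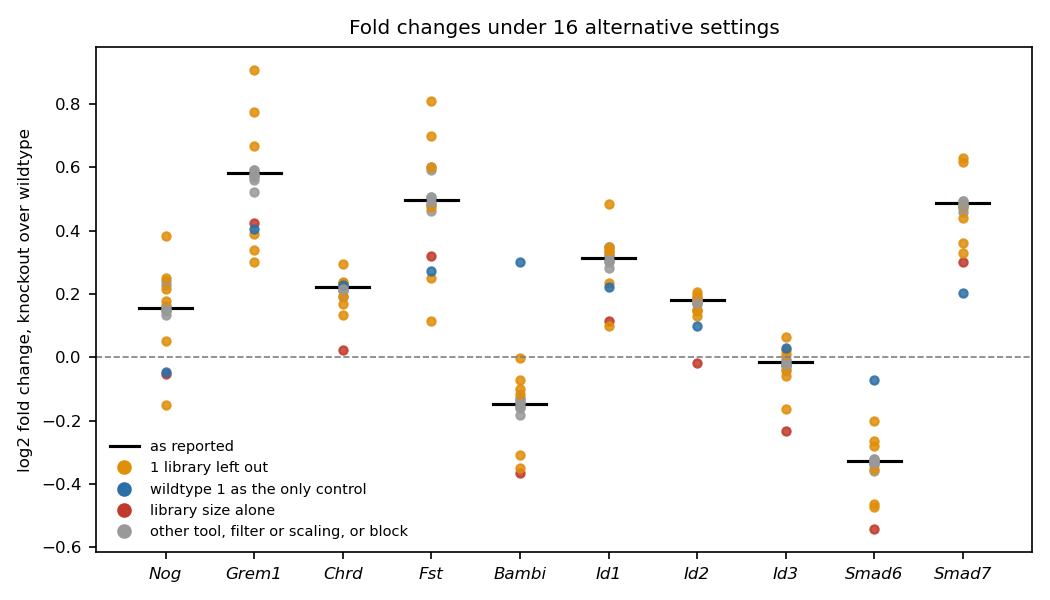
Log2 fold change of knockout over wildtype (vertical axis) for each of the 10 genes as reported (black bars) and under 16 alternative settings (points, coloured by kind of setting). All points of Grem1, Chrd, Fst, Id1 and Smad7 lie above 0 and all points of Smad6 below it, while Nog, Bambi, Id2 and Id3 have points on both sides.

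To compare levels between genes, CPM were divided by the length of each gene's exons in kilobases (GENCODE M21). Id3 led at 171 ± 17.5 CPM per kb (SD over all 6 libraries). Id2 and Id1 followed at 44.9 ± 3.69 and 43.7 ± 8.85 CPM per kb, a pair whose libraries overlapped. Bambi at 31.1 ± 6.17 CPM per kb overlapped with Id1, and its lowest library (23.8) lay just above the highest of Smad6 (23.1). Smad6 (17.5 ± 3.41 CPM per kb) overlapped with Smad7 (10.3 ± 2.68), and Smad7 with Nog (8.20 ± 2.14). Chrd, with the longest exons of the 10 (6258 bases), stood at 2.12 ± 0.238 CPM per kb, below every library of Nog. Fst (0.825 ± 0.339) and Grem1 (0.372 ± 0.172 CPM per kb) came last and overlapped with each other. In these cells the Id genes, Bambi and Smad6 thus had higher levels per length than any of the 4 secreted antagonists in every library.

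**Figure D4:**
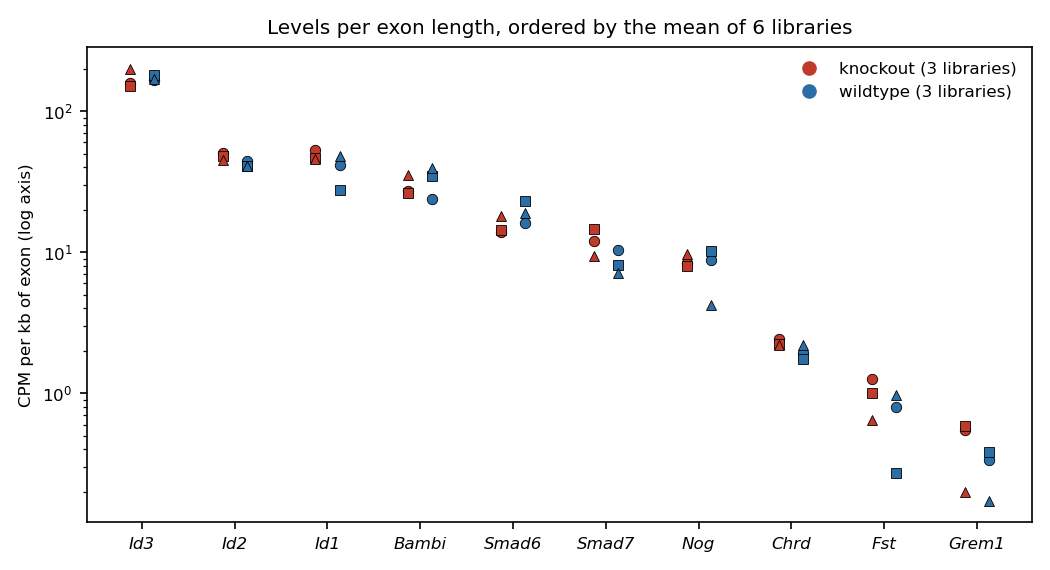
CPM per kilobase of exon (log axis) for the 10 genes in the 3 knockout (red) and 3 wildtype (blue) libraries, ordered by the mean over 6 libraries. Levels run from 200 CPM per kb for Id3 in knockout 3 down to 0.173 CPM per kb for Grem1 in wildtype 3.

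The other genes of the pathway were read from 6 lists of 65 symbols, all of which matched an ID, and 60 passed the filter on low counts. In edgeR 0 of the 60 were called, and 10 had an unadjusted p under 0.05 (16.7%, against 14.6% of all genes), 8 higher and 2 lower in the knockout libraries. DESeq2 called 2 of the 60, Tob1 and Crim1, and 2.16% of all genes with an adjusted p. The median log2 fold change was 0.17, with 39 positive and 21 negative, and -0.029 with library size alone, where 27 were positive and 33 negative. All knockout libraries exceeded all wildtype libraries for 9 of the 60 and lay below them for 4, beside the 10.6% and 9.81% of all genes.

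Further antagonists and extracellular modulators, 10 of them tested, had 7 positive and 3 negative fold changes. Crim1, a membrane protein that binds BMPs, measured 45.5, 40.03 and 31.8 CPM in the knockout and 29.1, 15.3 and 8.18 CPM in the wildtype libraries. All knockout libraries were higher, with wildtype 1 the closest (log2 fold change 1.15 ± 0.38, adjusted p = 0.288 in edgeR and 0.0498 in DESeq2). Crim1 is also expressed by endothelial cells, whose markers had a median of 1.29, and the part of these cells in its level was not tested. With wildtype 1 as the only control Crim1 stood at 0.42. Twsg1, the gene of the chordin partner twisted gastrulation, stood at 70.9, 70.3 and 68.9 against 57.3, 54.9 and 45.3 CPM (0.42 ± 0.15, adjusted p = 0.302 in edgeR). Bmper and Nbl1 had small negative values (-0.088 and -0.072), and Nbl1 was positive with wildtype 1 as the only control (0.086).

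Of 11 ligand genes, the activin subunits and the protease gene Bmp1 included, 7 were positive and 4 negative. With library size alone these counts were 5 and 6. Bmp2, a strong inducer of osteoblast formation, measured 47.2, 51.1 and 54.3 CPM in the knockout and 39.6, 32.7 and 26.0 CPM in the wildtype libraries, every knockout library being higher. Its log2 fold change was 0.63 ± 0.18, with an adjusted p of 0.273 in edgeR and 0.0734 in DESeq2. Gdf10, also called Bmp3b, stood at 0.54 ± 0.20, and Bmp7 and Bmp3 at -0.14 and -0.12, all 3 with overlapping groups. With wildtype 1 as the only control Bmp2 stood at 0.35, Gdf10 at 0.24, Bmp7 at 0.069 and Bmp3 at -0.19, and with library size alone Bmp7 and Bmp3 were at -0.37 and -0.36. Of 10 receptors and coreceptors 9 were positive, 6 with library size alone. The coreceptor Rgmb stood at 0.76 ± 0.34, the activin type II receptor genes Acvr2a at 0.50 ± 0.24 and Acvr2b at -0.029, and none was called. Without wildtype 1 these 3 stood at 1.24, 0.73 and 0.087, and with wildtype 1 as the only control at 0.12, 0.099 and -0.27.

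The 13 Smads and Smad regulators had 9 positive and 4 negative fold changes, 5 and 8 with library size alone. Tob1, which binds Smads and represses BMP-driven transcription in osteoblasts, measured 103, 129 and 116 CPM in the knockout and 87.3, 45.7 and 51.5 CPM in the wildtype libraries. Every knockout library was higher, and wildtype 1 was again nearest to them (log2 fold change 0.91 ± 0.24, adjusted p = 0.273 in edgeR and 0.0182 in DESeq2). Without wildtype 1 edgeR called Tob1 (1.24, adjusted p = 0.0301) and Crim1 (1.72, adjusted p = 0.0352). These were the 2 calls among the 60 in that fit, where 2.96% of all genes were called. Wildtype 1 was singled out for its likeness to the knockout libraries, and leaving out any other library called 0 genes. Skil, the gene of the Smad corepressor SnoN, stood at 0.67 ± 0.25, and at 0.24 with wildtype 1 as the only control. Smad1, which carries the BMP signal, stood at -0.26 ± 0.17, and Zeb2, a Smad-binding repressor, at -0.21 ± 0.18, and with wildtype 1 as the only control both were at -0.40.

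Of 11 other genes known to respond to BMPs 7 were negative, beside 6843 of all 13505 genes tested. The count was 6 without wildtype 1 and 8 with library size alone. Sp7 and Runx2, both negative, are also among the osteoblast markers, of which 10 of 12 were negative. Dlx6, a homeobox gene of skeletal development, measured 4.26, 5.35 and 9.05 CPM in the knockout and 10.9, 12.8 and 14.6 CPM in the wildtype libraries (-1.05 ± 0.29). Sp7, the osterix gene needed to form osteoblasts, measured 127, 131 and 182 against 208, 222 and 244 CPM (-0.62 ± 0.19). Both lay lower in every knockout library, and both missed the threshold, with adjusted p of 0.273 and 0.277 in edgeR and 0.0529 and 0.0535 in DESeq2. Id4, the fourth Id gene, stood at 0.58 ± 0.27 and the homeobox gene Msx1 at 0.26 ± 0.19, with overlapping groups. With wildtype 1 as the only control Id4 stood at 0.17, and with library size alone Msx1 stood at 0.050.

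Among the 5 partners of the Id proteins, Twist1, which restrains osteoblast maturation, measured 208, 216 and 278 CPM in the knockout and 171, 191 and 157 CPM in the wildtype libraries (log2 fold change 0.44 ± 0.18, adjusted p = 0.322 in edgeR). Tcf3, which encodes the E proteins E12 and E47, had 68.5, 67.5 and 68.9 against 75.4, 109.7 and 71.1 CPM (-0.32 ± 0.19, adjusted p = 0.412 in edgeR). The groups did not overlap for either gene, and for Tcf3 wildtype 2 stood far above the rest. Tcf4 (0.12) and Tcf12 (-0.038) differed by less than 1 standard error, and Tcf4 was negative with library size alone (-0.10) and with wildtype 1 as the only control (-0.074).

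**Figure D5:**
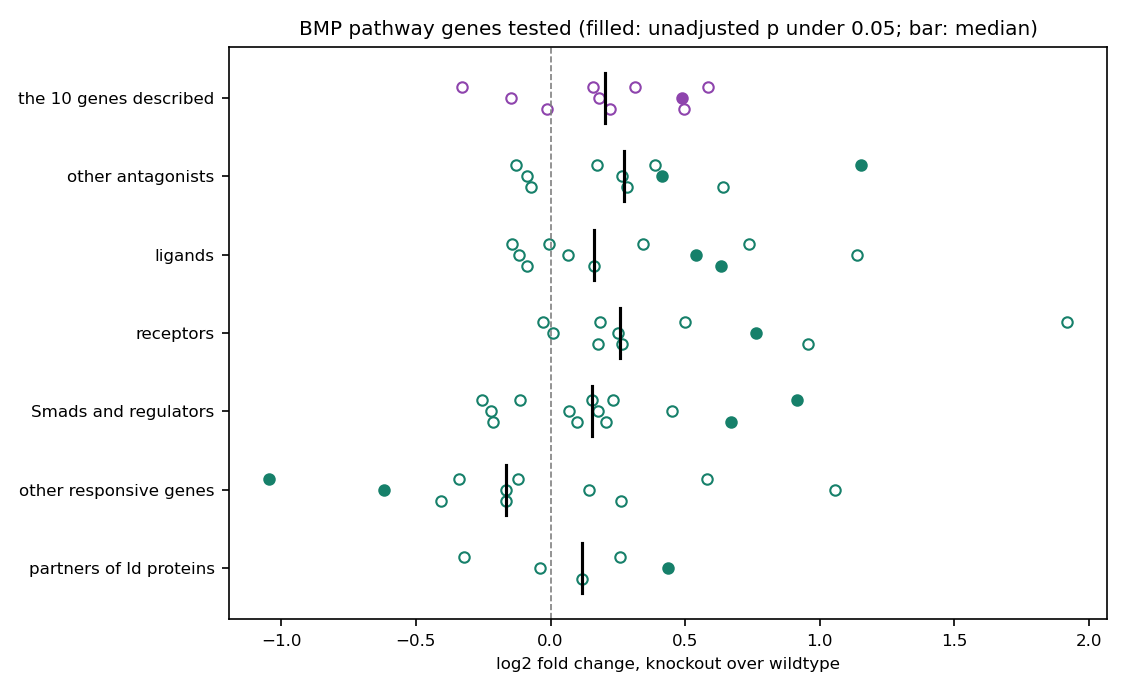
Log2 fold change of knockout over wildtype (horizontal axis) for the 10 genes described (purple) and 6 lists of other BMP pathway genes (green), with filled points for an unadjusted p under 0.05 and bars for list medians. Medians lie between 0.12 and 0.27 except for the other responsive genes, at -0.16, and 1 of the 10 purple points, Smad7, is filled.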

How the data were processed

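RNA from GFP-sorted calvarial osteoblasts was sequenced in 6 libraries, 3 labelled knockout and 3 wildtype. The authors deposited raw counts of reads per Entrez gene ID, with no normalization. Per the submitters' processing notes, CASAVA 1.7, Subread and featureCounts were used with build mm10. The sources used here do not give library selection, strandedness or strand use in counting, so reads of overlapping genes cannot be told apart. Columns were assigned to samples by name, with 0 left over. RefSeq (GRCm38.p6) named 25275 of 27179 IDs, and the unnamed 1904 stayed in totals and tests.

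Genes were filtered with filterByExpr, scaled with TMM (factors 0.813 to 1.09) and tested in edgeR 4.0.16 (R 4.3.3) by its quasi-likelihood test, two-sided, over the 6 libraries with genotype as the only term, Benjamini-Hochberg adjustment and a threshold of 0.05. The estimated biological coefficient of variation was 24.2%. Standard errors were the fold change over the root of the F statistic, and 95% intervals used the fit's degrees of freedom. The script was tested on simulated data. No library pair matched within sampling noise (chi-square per degree of freedom 18.5 to 141). Levels are CPM after TMM scaling. Exon lengths are unions of GENCODE M21 exons, which may differ from the authors' annotation.

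The members and lists were chosen with earlier results of these data known. Named besides the 10 were, per pathway list, the 2 genes of smallest p in each direction among those averaging at least 1 CPM, and Cdc73. Single marker genes were named after their values were seen. Alternatives were other scalings, filters and tools (DESeq2 1.42.0, limma 3.58.1 voom), the replicate number as a block, leaving out each library, and wildtype 1 as the only control. Leaving out unnamed IDs was chosen after seeing the data.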

Additional observations from a re-analysis of the deposited data

How the results depend on the processing

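None of the 16 alternatives called any of the 10 genes, and of 160 fold changes 151 kept their sign and 9 turned. With library size alone Nog stood at -0.054 and Id2 at -0.017, and the median of the 10 was 0.0034. With wildtype 1 as the only control, whose spread is assumed to equal that of the knockout libraries, Nog stood at -0.045, Bambi at 0.30 and Id3 at 0.031. Leaving out each library in turn gave -0.15 to 0.38 for Nog, -0.16 to 0.065 for Id3 and 0.12 to 0.23 for the median, the lowest being without wildtype 2. Over all genes, edgeR called 0 with 6 libraries (1974 at an unadjusted p under 0.05), 24 without the filter and 0 to 409 on leaving out each library, the 409 being without wildtype 1, and DESeq2 called 289. The causes of these shifts were not tested. With the replicate number as a block edgeR called 236 genes, 0 of the 10, with a median of 0.23. The labels give no shared origin for equal numbers, and deviations from the group means correlated at 0.12, -0.074 and 0.22 for numbers 1, 2 and 3, with knockout 2 correlating best with wildtype 1. Grem1 (10 to 38 counts) and Fst (18 to 96 counts) had the lowest counts of the 10, but the 18 counts of Fst in wildtype 2 lay outside the counting intervals of wildtype 1 and 3. These intervals are of raw counts and are not scaled for library depth. After scaling, Fst stood at 1.25 CPM in wildtype 2 and at 3.67 and 4.48 CPM in wildtype 1 and 3.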

Other observations

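Ratios of counts within a library do not depend on scaling between libraries, though they keep differences in cell makeup. These pairs were chosen after their values were seen, and none was tested. The ratio of Smad7 to Smad6 counts was 1.22, 1.41 and 0.736 across the knockout libraries in label order and 0.902, 0.497 and 0.528 across the wildtype libraries. Only wildtype 1 reached into the knockout range. The ratio of Id1 to Id3 counts was 0.216, 0.198 and 0.149 in the knockout libraries and 0.162, 0.0979 and 0.185 in the wildtype libraries, with overlap. That of Nog to Chrd spread most among the wildtype libraries, at 1.23, 1.58 and 0.520, against 0.929, 0.955 and 1.198 in the knockout libraries.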
